A study of Mus musculus with 2 samples.

Results

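Atf4, a transcription factor of the amino acid and stress response, 13 of its target genes and 19 cytosolic aminoacyl-tRNA synthetase genes were followed in mouse mammary gland through the first day of involution, when the gland regresses once lactation ends. They were taken by name from a list of 36 genes, and 33 of these had at least 1 array probe set annotated with a single gene, of 18193 named genes in all. No such probe set was matched to Pycr1, Vldlr-as or Dars, so no expression value is given for them here, though the promoter windows of Pycr1 and Dars were searched. Synthetase symbols are the older ones used on the array, of which Mars is now Mars1.

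Atf4 protein is made preferentially when eIF2alpha, a translation initiation factor, is phosphorylated by a kinase that senses amino acid shortage, endoplasmic reticulum stress, heme shortage or double-stranded RNA. Its amount therefore need not follow the level of Atf4 mRNA. Its known targets include enzymes that make asparagine, serine, glycine and proline, amino acid transporters, stress effectors and many cytosolic tRNA synthetases, the enzymes that load each amino acid onto its tRNA. In the lactating gland these enzymes feed the synthesis of milk protein.

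The tested samples were mammary glands of female CD1 mice on day 1 of involution, set against glands on day 0, the day on which pups were removed by force at day 10 of lactation. Mice of both groups had been bought at 6 weeks of age; the labels used here state no age at tissue collection. Litters of both groups had been set to 6 pups. For each day 1 Affymetrix mouse genome array was hybridised with total RNA pooled from 5 mice, which hides how individual mice varied. Each group is thus a single array, differences between the days have no replicate check, and none was tested.

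A signal is the brightness of a probe set on the linear scale of the Affymetrix MAS 5 software. Signals under 77.7, the median of both arrays, were raised to that floor, and a gene was counted as measured if its brightest probe set was above the floor on at least 1 array. The median signal was 60.1 on day 1 against 94.2 on day 0. Of all probe sets other than controls, 44.5% were above the floor on day 1 and 55.4% on day 0. Signals at or under the floor were thus more common on day 1. Ratios are given as log2, day 1 over day 0, so a ratio of 1 means 2-fold higher on day 1. All 33 members were measured, on both arrays above the floor. Over all 13239 measured genes the median log2 ratio was -0.12, with quartiles of -0.64 and 0.44. As deposited, 10.4% of these genes reached 2-fold on the higher side on day 1 and 13.3% on the lower side. Bacterial transcripts spiked into the hybridisation had a median log2 ratio of -1.16 over 15 probe sets, and scaling on them shifts the median of all genes by 1.09. Centring on the median of all genes shifts it by 0.12 and scaling on ribosomal protein genes by 0.39, so a ratio is best read against that of other genes. The log2 ratios of different probe sets of 1 gene had a pooled SD of 0.56 over 3943 genes, which describes probe sets and not mice.

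The glands held the transcripts of their labelled tissue, and markers of cell types differed between the days. All 8 markers of the secretory epithelium were at least 2-fold lower on day 1, with a summed signal of 238318 on day 1 against 600514 on day 0, and none was at the floor. The milk protein genes among them were among the brightest of each array, and after quantile normalization the marker median was -0.10 in place of -1.31. Of 7 luminal epithelial markers, 6 were at least 2-fold higher, with a summed signal of 75549.4 on day 1 against 15714.9 on day 0. Of 7 macrophage markers, Cd68, Cd14 and Lyz2 were higher and C1qa was lower, with a summed signal of 36750.4 on day 1 against 9907.7 on day 0 and none at the floor on both arrays. Cd14 alone gave 29010.6 on day 1 against 3816.8 on day 0, and without it the sum was 7739.8 on day 1 against 6090.9 on day 0. Adgre1, another macrophage marker, had a log2 ratio of -0.83. None of 6 myoepithelial, 6 fibroblast and 4 adipocyte markers was past 2-fold at the brightest probe set. Of the myoepithelial markers, Krt14 had dimmer probe sets at -1.73 and 0.47 (log2) and Oxtr had one at -1.21. Of 6 lymphocyte markers, Cd3g, Cd3d and Cd79a, all at the floor on day 0, were at least 2-fold higher and Cd3e was lower, with a summed signal of 9351.7 on day 1 against 8724.1 on day 0. Of 3 measured neutrophil markers, S100a8, at the floor on day 0, was at least 4.97-fold higher. S100a9 had a log2 ratio of 0.11, and Csf3r, at the floor on day 1, had at most -0.96. Mpo and Elane were at the floor on both arrays. Of 4 measured endothelial markers, Kdr was 2.02-fold lower. In RNA of whole glands, fewer cells of a type and less RNA per cell cannot be told apart. The part of cell composition in the ratios below was not tested.

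Atf4 and its targets lay on both sides of 0. The enzymes of amino acid and one-carbon metabolism were mostly lower on day 1, 4 of 7 by 2-fold or more. The 1 that was higher was the mitochondrial folate enzyme Mthfd2. Of the 7 transcription factors and stress effectors, 1 was at least 2-fold higher and none was lower. The difference between these roles was not tested. Over all 14 genes, 4 were at least 2-fold lower (28.6%, against 13.3% of all measured genes) and 2 at least 2-fold higher (14.3%, against 10.4%). Their median log2 ratio was -0.35, a difference of -0.24 from the median of all genes, and it was above 0 after scaling on ribosomal proteins (0.066) and on the spiked controls (0.81). At a looser threshold of 1.5-fold, 6 of the 14 were lower and 4 higher, where 27.2% and 20.4% of all measured genes were. At 3-fold, 2 were lower and 1 was higher, with 4.33% and 3.85% of all genes.

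**Figure D1:**
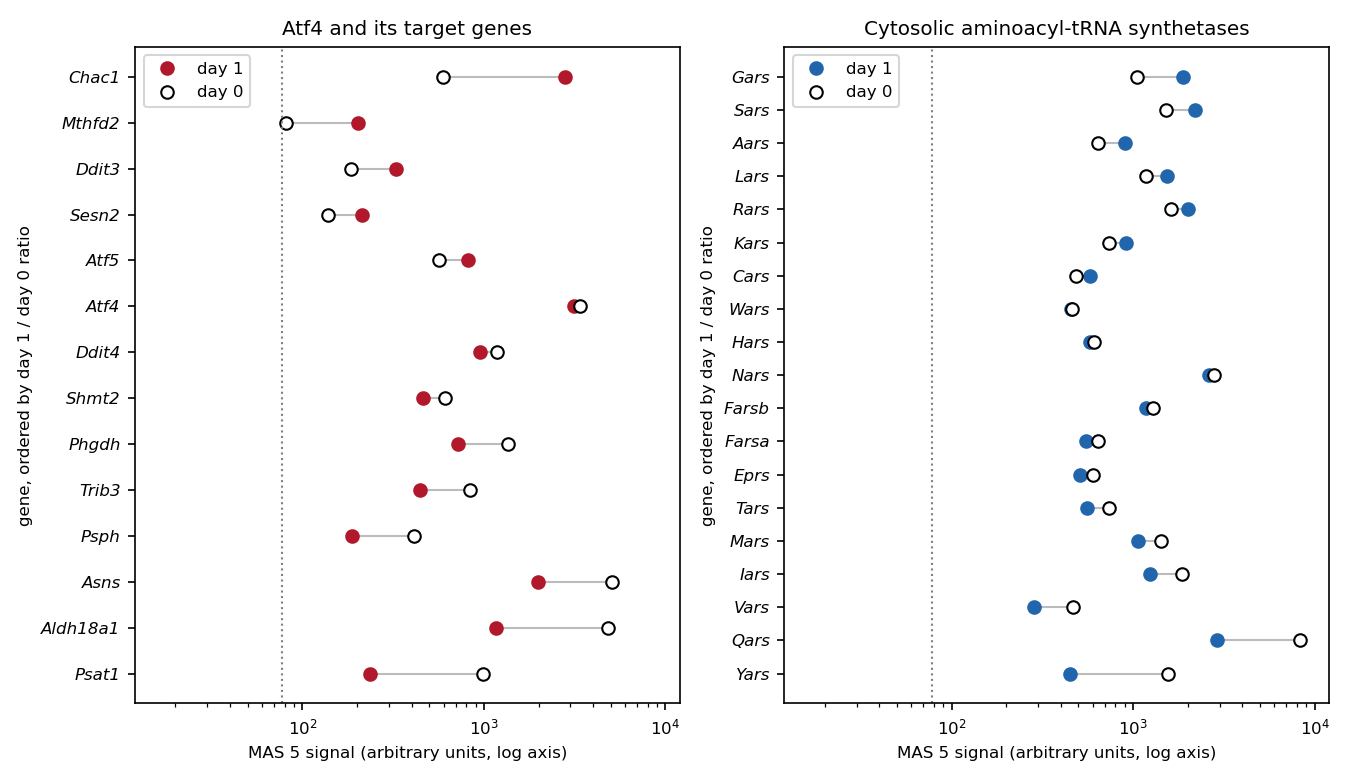
MAS 5 signal of each member on day 1 (filled) and day 0 (open), on a log axis, with genes ordered by their ratio and the floor of 77.7 as a dotted line. Each point is 1 array of pooled RNA, so there are no error bars; signals are comparable along a row, not between rows, and the widest gaps belong to Chac1 (2782.9 on day 1 against 598.7 on day 0), Psat1, Aldh18a1 and Yars.

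None of the 3 transcription factors was past 2-fold as deposited. Atf4 had a signal of 3130.8 on day 1 against 3389.5 on day 0, a log2 ratio of -0.11, and 50.2% of measured genes had a lower one. Another probe set gave -0.38, and a dim one was at the floor on both arrays. Atf4 mRNA was thus at the middle of the distribution on these arrays. Atf5, a related factor whose translation is controlled in the same way, had 815.1 on day 1 against 565.3 on day 0 (log2 ratio 0.53). Ddit3, which encodes the proapoptotic factor Chop, had 326.1 on day 1 against 186.5 on day 0. Its log2 ratio of 0.81 was higher than that of 85.6% of measured genes but under 2-fold. It was past 2-fold after scaling on ribosomal proteins (1.23) and on the spiked controls (1.97). In those settings 20.4% and 48.7% of all measured genes were at least 2-fold higher.

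Among the stress effectors, Chac1 stood at the far upper end. Chac1, an enzyme that breaks down glutathione, had a signal of 2782.9 on day 1 against 598.7 on day 0 and was 4.65-fold higher, above 98.6% of measured genes. Its single probe set was at least 2-fold higher in all 9 other settings of scaling, floor and probe set choice, with log2 ratios of 2.11 to 3.38. A lower or higher floor and the choice of probe sets could not alter the ratio of this bright single probe set. Sesn2, a leucine sensor that restrains the growth kinase complex mTORC1, had 213.2 on day 1 against 139.3 on day 0 (log2 ratio 0.61). Its other probe set had 216.6 on day 1 against 39.8 on day 0, which is below the floor, and gave a log2 ratio of at least 1.48. Both Sesn2 readings were thus higher on day 1. Ddit4, another inhibitor of mTORC1, had 958.0 on day 1 against 1182.8 on day 0 (log2 ratio -0.30). Trib3, a pseudokinase that binds Akt and Atf4, had 443.8 on day 1 against 841.9 on day 0 (log2 ratio -0.92), and -0.36 at its other probe set. The Trib3 probe set used is of a type that can also bind other transcripts. Chac1 and Trib3, both induced by Atf4 in stressed cells, thus lay on opposite sides of 0, except under scaling on the spiked controls, where Trib3 was at 0.24.

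Promoter sequence was examined because the members are grouped by their regulator. Atf4 binds composite elements together with C/EBP proteins, and the letters TGATGNAA were searched on both strands in windows from 250 bases before to 50 after the gene start, from RefSeq on GRCm38.p6. The forward and reverse forms do not overlap each other in the windows printed here. Of 32851 promoter windows, 1304 (3.97%) held the letters. Of the members' 30 windows, which cover 28 genes, 9 held them, namely 4 of 17 for Atf4 and its targets and 5 of 13 for synthetases. Pycr1, an enzyme of proline synthesis with no expression value here, was among those 4. Chac1 and Trib3 are shown because their ratios differ in sign; capitals mark the match, which in both lies on the reverse strand, with its first base at -193 from the start in Chac1 and at base 15 after it in Trib3.

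Chac1 promoter, chr2:119350992-119351291, + strand: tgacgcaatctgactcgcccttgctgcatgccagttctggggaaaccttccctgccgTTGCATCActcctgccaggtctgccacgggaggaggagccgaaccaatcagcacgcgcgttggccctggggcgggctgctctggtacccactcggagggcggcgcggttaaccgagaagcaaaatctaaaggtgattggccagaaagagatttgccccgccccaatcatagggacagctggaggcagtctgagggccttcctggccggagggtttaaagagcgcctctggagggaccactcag
Trib3 promoter, chr2:152344011-152344310, - strand: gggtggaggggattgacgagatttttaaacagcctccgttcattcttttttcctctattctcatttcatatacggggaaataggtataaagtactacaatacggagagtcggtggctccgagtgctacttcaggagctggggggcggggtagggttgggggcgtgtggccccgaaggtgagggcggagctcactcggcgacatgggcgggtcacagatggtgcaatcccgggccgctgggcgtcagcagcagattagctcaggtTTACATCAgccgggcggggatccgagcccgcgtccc

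Lower signals on day 1 were found along the synthesis of asparagine, proline and serine. The 7 enzymes measured include the folate enzymes Shmt2 and Mthfd2, and proline synthesis is represented by Aldh18a1 alone. The median log2 ratio of the 7 was -1.14, a difference of -1.02 from the median of all genes. It was at 0.027 under scaling on the spiked controls, where that difference was -0.94. The 8 secretory epithelial markers named above were also lower as deposited, with a median log2 ratio of -1.31. After quantile normalization the marker median was -0.10 and that of the enzymes was -1.09. That setting makes the brightest signals of both arrays nearly equal, which holds the brightest markers near 0 by construction. Xdh and Btn1a1, the dimmer markers, were at -1.47 and -1.17 there. Under scaling on the spiked controls the marker median was -0.14, where that of all genes was 0.97. Whether the enzymes followed the markers was not tested. The members furthest down were Aldh18a1 and Psat1, with 1.56% and 1.53% of measured genes at a lower ratio.

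Aldh18a1, which makes the precursor of proline and ornithine from glutamate, had 1169.4 on day 1 against 4854.8 on day 0 and was 4.15-fold lower. All 5 of its probe sets were at least 2-fold lower, with log2 ratios of -2.25 to -1.45. The brightest is of a type that can also bind other transcripts, and an unshared probe set gave -2.09. Asns, the asparagine synthetase, had 1990.0 on day 1 against 5096.3 on day 0 and was 2.56-fold lower. Its second probe set, with 1514.8 on day 1 against 3932.9 on day 0, had a log2 ratio of -1.38, against -1.36 at the first. The 2 Asns readings differed by far less than the spread between probe sets. The Asns promoter window, which has its match on the coding strand with its first base at -23 from the start, reads as follows.

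Asns promoter, chr6:7693160-7693459, - strand: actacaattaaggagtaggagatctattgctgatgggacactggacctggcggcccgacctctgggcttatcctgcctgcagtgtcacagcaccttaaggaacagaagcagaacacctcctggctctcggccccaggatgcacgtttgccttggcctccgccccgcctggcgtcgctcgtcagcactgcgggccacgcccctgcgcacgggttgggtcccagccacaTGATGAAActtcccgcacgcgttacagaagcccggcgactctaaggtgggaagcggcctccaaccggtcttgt

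The serine pathway was lower at each of its 3 steps as deposited. All probe sets of Phgdh and Psat1 are of types that can bind more than 1 transcript. Without shared probe sets these 2 genes have no value, and only Psph remains. Phgdh, the first enzyme, had 719.1 on day 1 against 1357.1 on day 0, a log2 ratio of -0.92 that is just under 2-fold. The 3 dimmer readings were -1.45, -1.23 and -0.76 on the log2 scale, so that 2 of 4 were past 2-fold and all 4 were below 0. Probe sets of Phgdh annotated also with a second gene were left out. Psat1, the aminotransferase of the second step, had 236.1 on day 1 against 983.5 on day 0 and was 4.17-fold lower. Its other probe set, with 275.8 on day 1 against 590.2 on day 0, was 2.14-fold lower. Psph, the phosphatase that releases serine, had 188.4 on day 1 against 414.0 on day 0 and was 2.20-fold lower at its single probe set. Scaling on the spiked controls put Psph at 0.027 and Phgdh at 0.25 (log2), and left Psat1 below 0.

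The 2 mitochondrial folate enzymes, which carry the carbon unit of serine onward, did not move alike. Shmt2, which splits serine into glycine and a folate-bound carbon unit, had 459.4 on day 1 against 608.6 on day 0 (log2 ratio -0.41). Log2 ratios of the other probe sets were -0.44, -0.76 and at most -1.64, the last with a day 1 signal under the floor against 241.5 on day 0. All 4 Shmt2 readings were below 0. The probe set used is of a type that can also bind other transcripts, while that at -0.76 is not. Mthfd2, the next enzyme, had 203.3 on day 1 against 81.0 on day 0 and was 2.51-fold higher, from a day 0 signal just above the floor. Its other probe set, with 86.8 on day 1 against 94.7 on day 0, had a log2 ratio of -0.13. The call of Mthfd2 thus rests on 1 of 2 dim probe sets, and the mean of both was at 0.60.

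**Figure D2:**
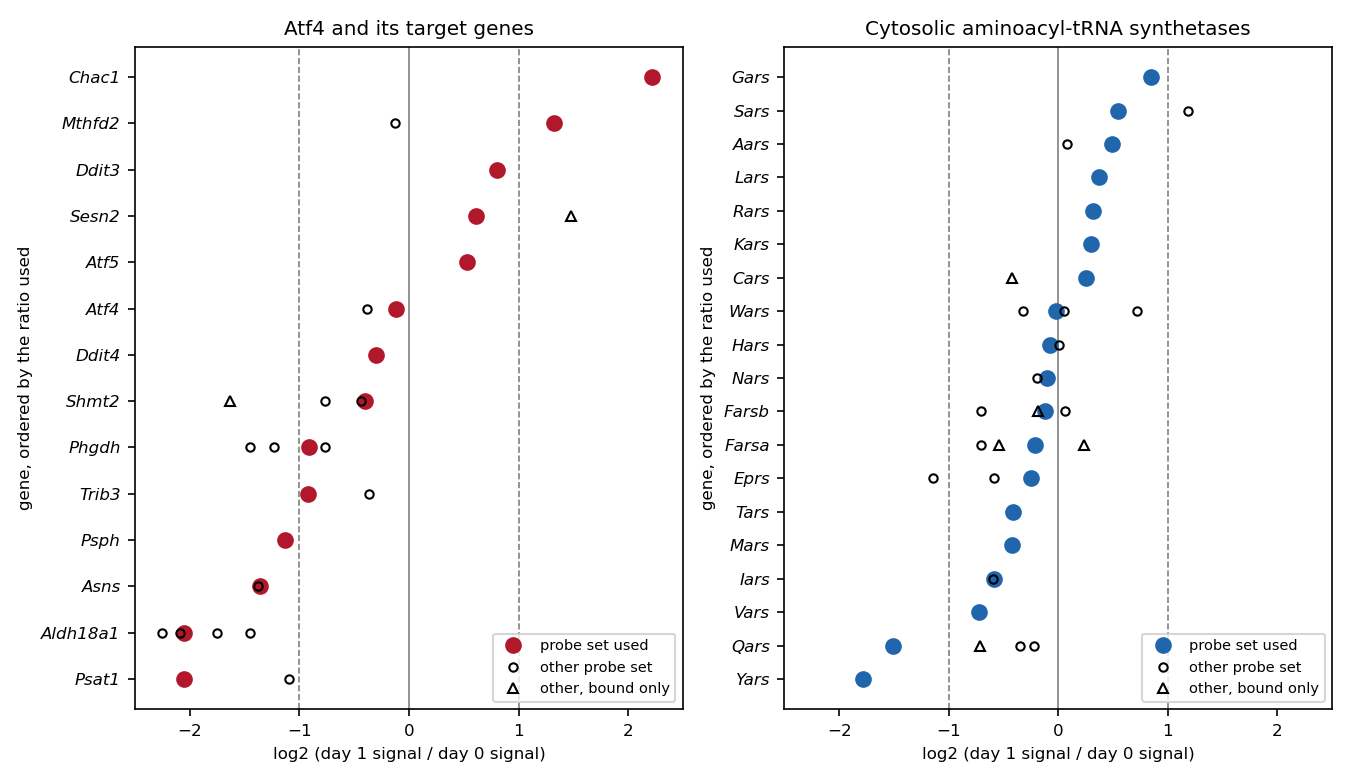
Log2 ratio, day 1 over day 0, for every measured probe set of each member; the probe set of highest mean signal is filled, others are open, and triangles mark bounds from a signal at the floor. Dashed lines mark 2-fold: all 5 Aldh18a1 and both Asns probe sets lie left of it, while for Qars only the brightest of 4 does.

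The cytosolic synthetases showed no shared difference. Of 19 genes, 2 (10.5%) were at least 2-fold lower on day 1, where 13.3% of all measured genes were, and 0 were at least 2-fold higher, where 10.4% were. Their median log2 ratio was -0.11, which is 0.013 above the median of all genes, and it was above 0 after median centring (0.013), scaling on ribosomal proteins (0.32) and on the spiked controls (1.06). Against the median of all genes in the same setting, the synthetase median ranged from -0.21 after quantile normalization to 0.11 with a lower floor. At 1.5-fold 4 were lower and 1 was higher, and at 3-fold 1 was lower and 0 were higher. The 10 synthetases counted as class I, which share a Rossmann-fold catalytic core, ran from -1.79 to 0.38 with a median of -0.33. Eprs, which loads both glutamate and proline, was counted only there. The 9 of class II, built on a different core, ran from -0.42 to 0.84 with a median of -0.08.

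Yars, the tyrosyl-tRNA synthetase, was the lowest of the 19. It had 451.0 on day 1 against 1554.4 on day 0 at its single probe set and was 3.45-fold lower, with only 2.82% of measured genes at a lower ratio. In 8 of 9 other settings it was at least 2-fold lower, and its log2 ratio was -0.62 under scaling on the spiked controls. As for Chac1, a lower or higher floor and the choice of probe sets could not alter its ratio. Qars, the glutaminyl-tRNA synthetase, had 2896.1 on day 1 against 8259.5 on day 0 and was 2.85-fold lower at its brightest probe set, one of a type that can also bind other transcripts. Its dimmer probe sets, with 1402.1 on day 1 against 1637.4 on day 0 and 818.4 on day 1 against 1041.6 on day 0, had log2 ratios of -0.22 and -0.35, and the dimmest gave at most -0.71. The call of Qars thus rests on 1 of 4 probe sets.

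At the other end, Gars, the glycyl-tRNA synthetase, had 1882.2 on day 1 against 1048.1 on day 0 and was 1.80-fold higher. Sars, which loads serine, had 2198.3 on day 1 against 1509.3 on day 0 (log2 ratio 0.54). Its second probe set, with 2239.5 on day 1 against 987.0 on day 0, was 2.27-fold higher. Aars, which loads alanine, had 898.1 on day 1 against 640.7 on day 0 (log2 ratio 0.49), and 0.08 at its other probe set. These 3, all of class II, were the highest of the synthetases at the probe set used, and each was under 2-fold there. With the mean of probe sets Aars was at 0.28, below Lars, Rars and Kars, and without shared probe sets it was at 0.08, with Wars at 0.71. Promoter windows are shown for Yars, Gars and Iars, which hold the searched letters and lie apart in their ratios; Yars has the match from base 4 after the start on the coding strand, Gars from -30 and Iars from base 8 after it, both on the reverse strand. Windows of Aars, which holds 2 matches, and of Tars also held the letters.

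Yars promoter, chr4:129189653-129189952, + strand: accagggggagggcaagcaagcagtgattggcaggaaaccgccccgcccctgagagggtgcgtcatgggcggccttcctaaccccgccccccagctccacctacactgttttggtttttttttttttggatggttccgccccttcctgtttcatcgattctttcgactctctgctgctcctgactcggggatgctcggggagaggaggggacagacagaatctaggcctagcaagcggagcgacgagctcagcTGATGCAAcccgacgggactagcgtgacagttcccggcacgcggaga
Gars promoter, chr6:55037751-55038050, + strand: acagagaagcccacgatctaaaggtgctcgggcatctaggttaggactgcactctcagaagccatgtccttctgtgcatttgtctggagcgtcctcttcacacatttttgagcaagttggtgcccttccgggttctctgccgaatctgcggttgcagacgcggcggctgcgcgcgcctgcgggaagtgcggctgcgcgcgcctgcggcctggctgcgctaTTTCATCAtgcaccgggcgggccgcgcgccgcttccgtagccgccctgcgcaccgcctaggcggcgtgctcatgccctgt
Iars promoter, chr13:49681880-49682179, + strand: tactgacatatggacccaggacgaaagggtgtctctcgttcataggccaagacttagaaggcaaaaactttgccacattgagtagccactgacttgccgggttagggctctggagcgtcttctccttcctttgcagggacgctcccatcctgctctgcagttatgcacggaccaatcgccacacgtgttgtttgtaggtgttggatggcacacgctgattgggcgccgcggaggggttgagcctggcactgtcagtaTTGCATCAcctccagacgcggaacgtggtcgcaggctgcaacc

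Genes with the searched letters did not share a direction. Of the 8 measured ones, as deposited, Chac1, Gars and Aars had ratios above 0 and Yars, Asns, Trib3, Iars and Tars below 0. Psat1, Aldh18a1, Psph and Phgdh were lower without a match in these windows.

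Cytosolic synthetases of 8 kinds sit in 1 large multisynthetase complex, and 7 of these were measured. Lars had 1529.9 on day 1 against 1178.2 on day 0 (log2 ratio 0.38), Rars 2014.4 on day 1 against 1613.4 on day 0 (0.32) and Kars 909.2 on day 1 against 738.8 on day 0 (0.30). Iars, which loads isoleucine, had 1232.7 on day 1 against 1850.3 on day 0 (log2 ratio -0.59), and -0.60 at its other probe set. Mars had 1065.4 on day 1 against 1425.2 on day 0 (log2 ratio -0.42). Eprs, which loads both glutamate and proline, had 507.9 on day 1 against 602.7 on day 0 (log2 ratio -0.25), while its other probe sets had -0.59 and -1.14. Qars, described above, completes the 7, so that subunits of the same complex lay on both sides of 0 and only Qars was past 2-fold. The median was -0.25 for the 7 and -0.09 for the 12 synthetases outside the complex.

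The complex also has 3 scaffold proteins. Eef1e1, the smallest of them, had 1368.6 on day 1 against 4170.4 on day 0 and was 3.05-fold lower at its single probe set. Aimp1 (log2 ratio 0.65) and Aimp2 (0.22) were under 2-fold. The scaffold genes thus lay on both sides of 0 as well.

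The remaining synthetases were all under 2-fold at the probe set used. Vars had 284.0 on day 1 against 469.5 on day 0 (log2 ratio -0.73), below the lower quartile of all measured genes, of which 21.7% had a lower ratio. Tars had 554.1 on day 1 against 739.2 on day 0 (-0.42). Cars had 580.3 on day 1 against 487.6 on day 0 (log2 ratio 0.25), with a dim probe set at most at -0.42. The 2 subunits of the phenylalanyl enzyme, Farsa with 551.3 on day 1 against 637.4 on day 0 and Farsb with 1177.5 on day 1 against 1283.5 on day 0, had log2 ratios of -0.21 and -0.12. Nars had 2604.7 on day 1 against 2801.5 on day 0 (log2 ratio -0.11), Hars 575.5 on day 1 against 607.3 on day 0 (-0.08) and Wars 454.2 on day 1 against 459.3 on day 0 (-0.02). Dimmer probe sets spread more widely, from -0.71 to 0.23 for Farsa, from -0.70 to 0.06 for Farsb and from -0.32 to 0.71 for Wars. None of these was past 2-fold at a probe set that gave more than a bound.

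**Figure D3:**
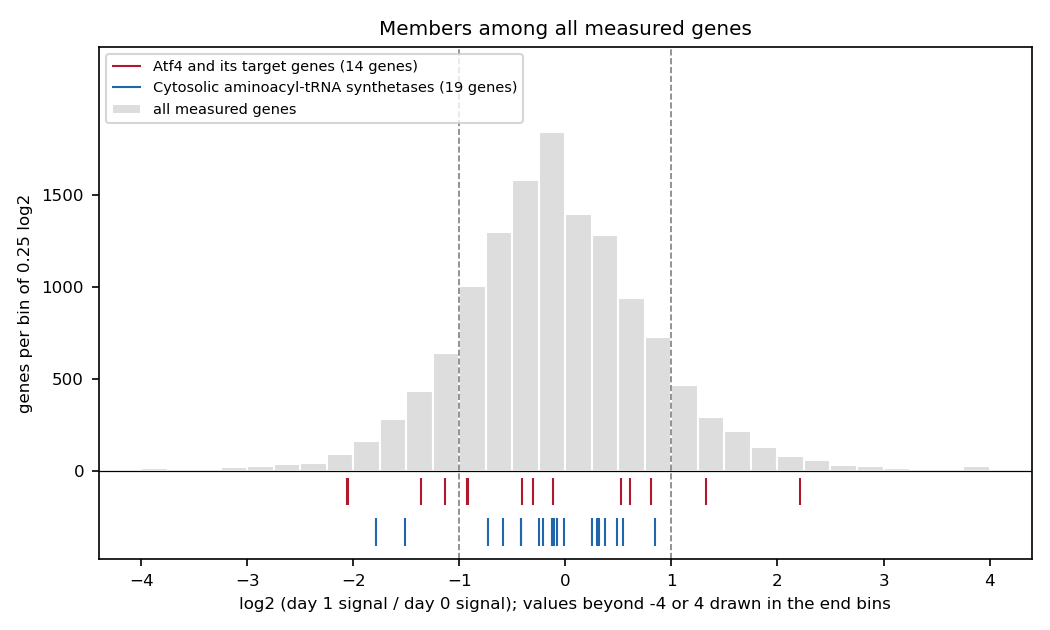
Histogram of log2 ratios of the 13239 measured genes (grey, bins of 0.25 log2), with ticks for the 14 genes of Atf4 and its targets (upper row) and the 19 synthetases (lower row); dashed lines mark 2-fold. All synthetases but Yars and Qars lie within the 2-fold lines, and the Atf4 targets reach from -2.06 to 2.22.

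Upstream of Atf4, the 4 eIF2alpha kinases, Eif2ak1 to Eif2ak4, were under 2-fold at their brightest probe set, with log2 ratios from -0.10 to 0.44. A dimmer probe set of Eif2ak4, the kinase that senses amino acid shortage, gave -1.36, against 0.087 at the brightest. The 2 regulatory subunits that direct the phosphatase to eIF2alpha lay on opposite sides. Ppp1r15a, the stress-inducible one known as Gadd34, had 337.2 on day 1 against 109.7 on day 0 and was 3.07-fold higher. Ppp1r15b, the constitutive one, had 1184.9 on day 1 against 2751.7 on day 0 and was 2.32-fold lower, with -1.22 at both of its probe sets.

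Of 9 measured factors that pair with Atf4 or are related to it, 4 were at least 2-fold higher and 1 was lower, where 10.4% and 13.3% of all measured genes were. Atf3, a stress-induced factor and itself an Atf4 target, had 401.3 on day 1 against 95.1 on day 0 and was 4.22-fold higher. Cebpd, a C/EBP family factor, had 6785.9 on day 1 against 2041.7 on day 0 (3.32-fold higher), and Nupr1, a stress-induced chromatin protein, 24124.7 on day 1 against 7605.3 on day 0 (3.17-fold higher). Batf, at the floor on day 0, was at least 2.87-fold higher, and Batf3 was 2.09-fold lower, or at 0.097 log2 under scaling on the spiked controls. The list median was 0.85 and was above 0 in all settings run, at 0.61 to 2.01.

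Further Atf4 targets were on both sides of 0. Of 20 measured, 7 were at least 2-fold lower and 3 higher, where 13.3% and 10.4% of all measured genes were, with a median log2 ratio of -0.43. Cth, which makes cysteine from cystathionine, had 89.2 on day 1 against 352.9 on day 0 and was 3.96-fold lower. Stc2, a secreted glycoprotein, had 118.0 on day 1 against 421.3 on day 0 (3.57-fold lower), and its other probe sets gave -1.58 and -0.31 on the log2 scale. Slc38a2, a transporter of small neutral amino acids, had 1542.9 on day 1 against 5453.0 on day 0 (3.53-fold lower). Its other probe sets, at -0.95 and -0.77, were under 2-fold, and the mean of its probe sets was -1.18 (log2). Gpt2, the mitochondrial alanine aminotransferase, had 420.7 on day 1 against 1220.6 on day 0 (2.90-fold lower). In the other direction, Slc3a2, the heavy chain shared by several amino acid transporters, had 8970.7 on day 1 against 3177.4 on day 0 (2.82-fold higher). Jhdm1d, a histone demethylase gene, had 431.8 on day 1 against 182.2 on day 0 (2.37-fold higher), and its other probe sets reached down to -0.40. The remaining gene on the higher side, Ero1a, was named after its values were seen and had a mean of -0.12 over its probe sets. The remaining genes on the lower side, named likewise, were Slc7a5, Slc6a9 and Vegfa. Slc7a5, also an amino acid transporter gene, had 1039.3 on day 1 against 2397.9 on day 0 (2.31-fold lower). Slc6a9 was 2.26-fold lower, with 0.20 (log2) at its other probe set, and Vegfa was 2.06-fold lower. The list median was at 0.45 under scaling on the spiked controls.

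**Figure D4:**
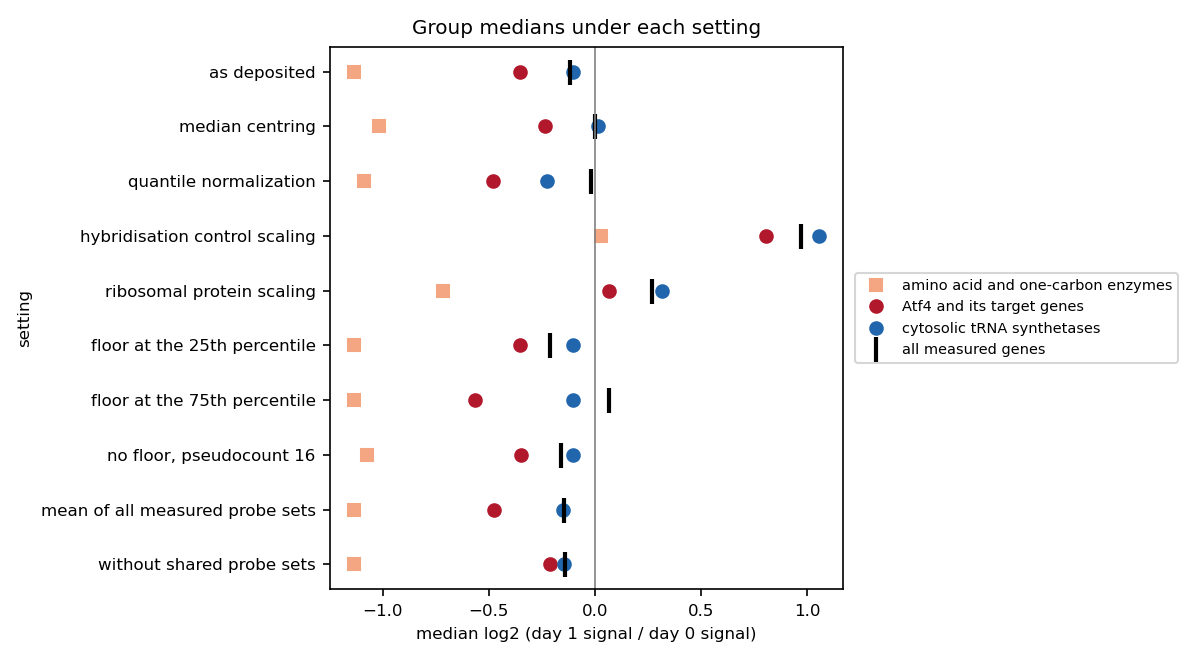
Median log2 ratio of the 7 enzymes, of Atf4 with its targets, of the synthetases and of all measured genes under each scaling, floor and probe set choice. The enzymes lie to the left of all genes in every setting drawn, including scaling on the spiked controls, where their median is 0.027 and that of all genes is 0.97.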

How the data were processed

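RNA pooled from 5 mice was measured on 1 Affymetrix Mouse Genome 430 2.0 array for each day. The deposited intensity values are MAS 5 signals, which the authors made with Microarray Suite 5.0, per the labels. Without the lowest and highest 2% of probe sets both arrays averaged 250, which shows that each was scaled by its own factor. The scaling target and detection calls are not given in the sources used here. Scaling takes out a uniform difference in brightness, but a difference in background is carried into the ratios. The number of arrays limits the precision.

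Of 45101 probe sets, 34945 had 1 gene in the platform annotation, 932 had several and were left out, 9160 were unnamed here and 64 were controls. Symbols were updated through gene identifiers to RefSeq on GRCm38.p6. The members held 72 probe sets, of which 69 were measured. For each gene the probe set of highest mean signal was used, and others are given as ranges or values. A gene was counted at 2-fold. Members and lists were chosen with earlier results of these data known. All members are named. By rule, up to 6 genes at least 2-fold different are named from each other list, and some further genes are named as well.

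Alternatives were other scalings, a lower floor (25th percentile), a higher one (75th percentile), a pseudocount of 16 without floor, the mean of probe sets, leaving out probe sets shared between transcripts, and thresholds of 1.5-fold and 3-fold. The ratio and call steps were tested on simulated data. Python 3.11.15, numpy 2.4.6 and pandas 2.3.3 were used.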

Additional observations from a re-analysis of the deposited data

How the results depend on the processing

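With 1 array a day, no replicate could be left out. No paired analysis was possible because each day has 1 array of a different pool. Alternatives for the 7 enzymes were chosen after seeing the data. As deposited, the medians were -1.14 for the enzymes, -0.35 for Atf4 and its targets and -0.11 for the synthetases, with 4 enzymes, 4 targets and 2 synthetases at least 2-fold lower and 2 targets and 0 synthetases higher. In the same order, the medians were -1.02, -0.24 and 0.013 after median centring, -0.71, 0.066 and 0.32 after ribosomal protein scaling, and 0.027, 0.81 and 1.06 after hybridisation control scaling. Quantile normalization gave -0.48 for the targets and -0.22 for the synthetases. The targets' median was -0.57 with the 75th percentile floor, -0.47 for the mean of probe sets and -0.21 without shared probe sets. Hybridisation control scaling left 0 enzymes, 0 targets and 0 synthetases lower, with 6 targets and 11 synthetases higher. In that setting 2.28% of all measured genes were lower and 48.7% higher, and Psph was at 0.027. Ribosomal protein scaling left 2 enzymes and 2 targets lower, with 4 targets and 1 synthetase higher, where 7.66% of all measured genes were lower and 20.4% higher. These scalings raise every day 1 signal by construction; the cause of the other differences was not tested. The mean of probe sets, and leaving out shared ones, left 1 synthetase lower, as did 3-fold. At 3-fold 2 targets were lower and 1 was higher, and the 75th percentile floor left 1 target higher. At 1.5-fold 6 targets and 4 synthetases were lower, and 4 targets and 1 synthetase higher. In all 9 settings other than thresholds, the enzyme median minus that of all genes was between -1.20 and -0.91. Of all calls as deposited, 43.8% were on the higher side, against 53.6% after median centring, 72.7% after ribosomal protein scaling, 95.5% after hybridisation control scaling, 31.6% with the 25th and 58.4% with the 75th percentile floor and 33.8% with no floor. Mthfd2 was at 0.60 for the mean of probe sets and was not measured with the 75th percentile floor.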

Other observations

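The mitochondrial tRNA synthetases, which serve translation inside mitochondria, were mostly under 2-fold. Of 16 measured, 1 was at least 2-fold lower on day 1 and 0 were higher, where 13.3% and 10.4% of all measured genes were, with a median log2 ratio of -0.21. The 1 was Aars2, the mitochondrial alanyl enzyme, with 155.6 on day 1 against 426.5 on day 0 (2.74-fold lower). Cytosolic Aars, at a log2 ratio of 0.49, was on the other side of 0.

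Targets of Atf6 and Xbp1, the other branches of the unfolded protein response, were also mostly under 2-fold at their brightest probe set. Of 12 measured, 1 was at least 2-fold lower and 0 were higher, where 13.3% and 10.4% of all measured genes were, with a median log2 ratio of -0.35. Sdf2l1, a chaperone cofactor of the endoplasmic reticulum, had 197.8 on day 1 against 544.4 on day 0 (2.75-fold lower). Hspa5, the main chaperone of that compartment, had a log2 ratio of -0.01. Dnajc3, a chaperone cofactor named after its values were seen, had a log2 ratio of -0.97 at the brightest probe set, with 3 of 5 past 2-fold lower. Xbp1 itself, named likewise, was at -0.93, with 1 of 4 past 2-fold lower. Both list medians were above 0 under scaling on ribosomal proteins (0.22 for the mitochondrial synthetases and 0.073 for the Atf6 and Xbp1 targets) and on the spiked controls (0.93 and 0.81).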
